A study of Mus musculus with 6 samples.

Results

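The genes described here are 44 factors that act at replication origins and replication forks, chosen by name from 24972 genes in the deposited table, with the MCM helicase genes left out. They were measured by RNA-Seq in isolated lung ECs (iLECs), the CD31+ cells that antibody-coated magnetic beads take from digested mouse lungs, at postnatal day 7. Control libraries (n = 3) were labelled Atp6ap2 fl/Y, without Cre, and Atp6ap2iECKO libraries (n = 3) were labelled Atp6ap2 fl/Y with Cdh5-CreERT2, a Cre recombinase that tamoxifen activates and that is made in endothelial cells, where the *Cdh5* promoter is active. All pups received 100 μg tamoxifen on each of postnatal days 1 to 3, so the genotypes differed in the presence of Cre as well as in deletion. The study's own definition of each genotype covers fl/Y males and fl/fl females, and neonates of either sex were used, so the labelled fl/Y may not hold for every library. The labels give the strain as C57BL/6, while the methods describe a mixed CD1 and C57BL/6 background, and neither says whether a library pooled animals or whether the samples came from separate litters, so P values measure the spread between these libraries. Values are gene counts that the authors had already normalized between libraries (normalized counts), and the number of reads behind each is unknown.

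A chromosome is copied once per cell cycle from many origins. In G1 the origin recognition complex (ORC), with *Cdc6* and *Cdt1*, loads the MCM helicase onto origins, a step called licensing that geminin (*Gmnn*) blocks after S phase has begun. In S phase the kinase of *Cdc7* and *Dbf4* and the binding of *Cdc45* and the GINS complex switch the helicase on, polymerase α-primase lays down primers, and polymerases δ and ε extend them with the help of the sliding clamp *Pcna*. Transcription of many of these genes rises at the G1 to S boundary under E2F factors, and the growing postnatal lung is a tissue in which endothelial cells divide.

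Promoter sequence was available for 36 of the 44 genes in RefSeq (GRCm38.p6, from 250 bases before to 50 bases after the start site, 47 promoters). The E2F element was searched on both strands as TTTCCCGC, TTTCGCGC, TTTGCCGC or TTTGGCGC. It was present in a promoter of 14 of the 36 genes (38.9%), against 500 of the 11263 tested genes with a promoter (4.4%). Counted by promoter, 14 of 47 (29.79%) held it, against 2.26% of all 32851 promoters of this length, and none of the 16 elements overlapped a CCAAT box or a TTTGAA or TTCGAA motif. The following stretches of 30 bases hold the element nearest a start site of the gene. They come from 8 genes that rose in Atp6ap2iECKO iLECs and from *Cdc6* and *Orc3*, which did not pass the test. *Lig1*, *Uhrf1* and *Dnmt1* also have promoters without the element, and which promoter these cells use was not tested. Capitals mark the element, and each stretch is read along the strand on which the element starts with TTT.
Orc1, chr4:108579416-108579445, minus strand: aggagaaaactTTTCGCGCcactaaccgaa
Cdt1, chr8:122568035-122568064, plus strand: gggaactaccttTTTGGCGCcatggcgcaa
Pola1, chrX:93632275-93632304, plus strand: gcgggagtgcaTTTGGCGCcctgtgatgac
Pold1, chr7:44548766-44548795, plus strand: gctTTTCCCGCcacaagatacgccgccgtg
Lig1, chr7:13278841-13278870, minus strand: cgccacacagaTTTCGCGCgcactttggcg
Clspn, chr4:126556990-126557019, minus strand: gaagttcgagcTTTCGCGCccagacgcggt
Uhrf1, chr17:56304117-56304146, plus strand: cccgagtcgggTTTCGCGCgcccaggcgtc
Dnmt1, chr9:20952574-20952603, minus strand: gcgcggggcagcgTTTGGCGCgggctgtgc
Cdc6, chr11:98908002-98908031, minus strand: accccaggcgaTTTCCCGCtctccaccggc
Orc3, chr4:34614965-34614994, minus strand: ccatgcctcccTTTCCCGCacgccccgcct
The element of *Orc3*, whose levels overlapped between genotypes, has the same letters as those of *Cdc6* and *Pold1*. The element was present in 8 of 18 genes that rose (44.4%) and in 6 of 18 that did not pass (33.3%), and the median log2 fold change was 0.93 in the 14 genes with it and 0.72 in the 22 without. The TTTGAA or TTCGAA motif was in 22.2% of the 36 genes and 16.5% of tested genes. It was in 33.3% of the genes that rose and 11.1% of those that did not pass. The CCAAT box was in 52.8% of the 36 genes and 42.4% of tested genes, and in 55.6% and 50% by outcome. These matches are descriptions of the letters in the window and were not tested as binding sites.

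*Atp6ap2*, the targeted gene, stood at 7490.2, 5815 and 5681 in control replicates 1 to 3 and 4219.9, 2336 and 1982 in Atp6ap2iECKO replicates 1 to 3 (log2 fold change -1.22, SE 0.26, adjusted P = 0.0306). It still passed the test without Atp6ap2iECKO replicate 1 and no longer passed when any other single library was left out. *Xist*, the transcript of the inactive X chromosome, was abundant in 4 of the 6 libraries (37704 to 47487) and near absent in control replicate 3 and Atp6ap2iECKO replicate 2 (31.7 and 19.3), although the labels give fl/Y, a male genotype, for all. The 4 libraries with *Xist* therefore held RNA from female cells, against their labels. Totals of normalized counts were between 26243878 and 28725799, and the step between low values placed the Atp6ap2iECKO libraries at 1.26 to 1.56 times the depth of the shallowest library and the control libraries at 1 to 1.04 times.

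In Atp6ap2iECKO iLECs, 22 of the 44 replication genes rose and 0 fell (limma, adjusted P below 0.05), where 3.28% of the 14456 genes tested rose and 4.97% fell (8.25% in either direction). All 44 genes were high enough to be tested, and 43 of them had a positive log2 fold change, against 50.7% of all genes tested. Their log2 fold changes had a median of 0.85, and those of all genes tested had a median of 0.0049. Without adjustment 36 of the genes had P below 0.05 in the higher direction, against 11.6% of all genes, and 1 (*Timeless*) in the lower direction, against 12.3%. For 35 of the genes every Atp6ap2iECKO library lay above every control library, against 14.7% of all genes, and for 1 (*Timeless*) every one lay below, against 15%. The 22 genes rose between 1.4-fold (*Rpa1*) and 2.66-fold (*Pole*), and 9 of them by at least 2-fold. These counts depended on single libraries. Without control replicate 3, Atp6ap2iECKO replicate 2 or Atp6ap2iECKO replicate 3, 1, 1 and 2 of the genes passed, and 63, 33 and 28 genes of the whole table were higher. Without control replicate 1 or Atp6ap2iECKO replicate 1, 13 and 10 passed, where 1.89% and 2.54% of all genes tested were higher. Without control replicate 2, 28 passed, where 3.19% of all genes tested were higher. The median log2 fold change stayed between 0.67 and 1.04 in all 6 of these fits. With the presence of *Xist* as a covariate 14 of the 44 genes rose, against 1.72% of all genes tested. In the 2 control and 2 Atp6ap2iECKO libraries with *Xist* the median log2 fold change was 0.79 and 0 of the 44 genes passed. In that fit 28 of the 44 had unadjusted P below 0.05 (limma, either direction), against 2239 of the 14456 genes tested. Between the 2 libraries without it, 1 per genotype, the median log2 ratio was 1.00.

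**Figure D1:**
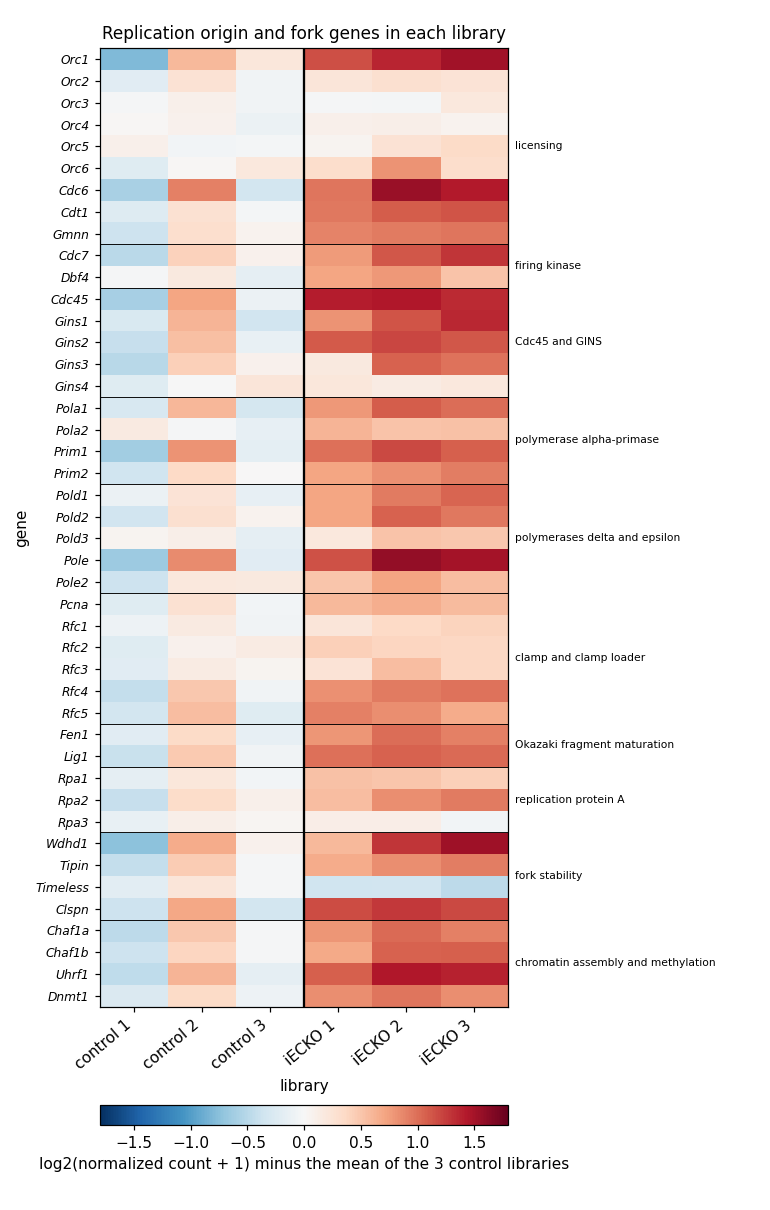
Each row is 1 of the 44 replication genes, grouped by role, and each column 1 library. Color gives the log2 of the normalized count plus 1 minus the mean of the 3 control libraries. Control replicate 1 is the lowest library for 34 genes, control replicate 2 is the highest control for most, and the 3 Atp6ap2iECKO libraries are red in nearly all rows except *Timeless*, which is blue.

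Of the 9 licensing genes, *Orc1*, *Cdt1* and *Gmnn* rose and the other 6 did not pass the test. *Orc1*, the largest subunit of ORC (chr4:108579423-108614833 of GRCm38), was measured at normalized counts of 82.5, 215 and 166 in control replicates 1 to 3 and 322, 372 and 412 in Atp6ap2iECKO replicates 1 to 3. Every Atp6ap2iECKO library lay above every control library, and control replicate 1 lay well below the other controls (log2 fold change 1.35, SE 0.33, adjusted P = 0.0454). *Cdt1*, which brings the helicase to ORC (chr8:122568015-122573554), had 417, 590.5 and 477 in control replicates 1 to 3 and 949, 1047 and 1077 in Atp6ap2iECKO replicates 1 to 3. It had the smallest adjusted P value of the 44 genes (log2 fold change 1.06, SE 0.14, adjusted P = 0.0103), and it was the only one of them past the threshold in each of the 6 fits that left out a library. *Gmnn*, the inhibitor of *Cdt1*, had 139, 223 and 188 in control and 335, 345 and 352 in Atp6ap2iECKO iLECs, again without overlap (log2 fold change 0.93, SE 0.19, adjusted P = 0.0283). As both rose, *Cdt1* made up 54.3% to 58.3% of the summed *Cdt1* and *Gmnn* level per kilobase of exon in control libraries and 56.9% to 58.8% in Atp6ap2iECKO libraries, ranges that overlapped.

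*Cdc6*, the ATPase that joins ORC before the helicase is loaded, had 192, 536 and 228 in control and 561, 843 and 772 in Atp6ap2iECKO iLECs. Control replicate 2 was close to the lowest Atp6ap2iECKO library, and *Cdc6* did not pass despite a 2.49-fold difference (log2 fold change 1.32, SE 0.36, adjusted P = 0.0653). The other ORC subunits were nearer to equal between genotypes. *Orc6*, which binds the core complex less tightly, had 541, 635 and 717 in control and 779, 1100.4 and 777 in Atp6ap2iECKO iLECs (adjusted P = 0.131), without overlap. *Orc2*, *Orc3*, *Orc4* and *Orc5* overlapped between genotypes, with log2 fold changes of 0.25 (95% interval -0.063 to 0.56), 0.044 (-0.18 to 0.26), 0.087 (-0.11 to 0.28) and 0.22 (-0.072 to 0.52).

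Both genes of the kinase that fires licensed origins rose. *Cdc7*, its catalytic subunit, had 185, 349 and 274 in control and 446, 566 and 637 in Atp6ap2iECKO iLECs (log2 fold change 1.06, SE 0.24, adjusted P = 0.0389). *Dbf4*, its activator, had 757, 866 and 687 in control and 1261, 1316 and 1096 in Atp6ap2iECKO iLECs (log2 fold change 0.67, SE 0.12, adjusted P = 0.0191), and its control libraries lay closer together than those of *Cdc7*. In both genes the genotypes were fully separated.

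Of *Cdc45* and the 4 GINS genes, which complete the active helicase, *Cdc45* and *Gins2* rose. *Cdc45* (chr16:18780447-18811987) had 123, 304 and 173 in control replicates 1 to 3 and 497, 508 and 475 in Atp6ap2iECKO replicates 1 to 3. The Atp6ap2iECKO libraries differed by at most 1.07-fold from each other and the control libraries by 2.48-fold (log2 fold change 1.40, SE 0.30, adjusted P = 0.0301). *Gins2* had 116, 225 and 141 in control and 333, 357 and 338 in Atp6ap2iECKO iLECs, also with tight Atp6ap2iECKO values (log2 fold change 1.14, SE 0.24, adjusted P = 0.0304). *Gins1* had 48.1, 89.05 and 45.8 in control and 102, 129 and 151 in Atp6ap2iECKO iLECs, separated between genotypes without passing (adjusted P = 0.0737). *Gins3* (64.1, 124 and 96.03 in control and 104, 192 and 180.5 in Atp6ap2iECKO iLECs) and *Gins4* (236, 273 and 319 in control and 316, 303 and 311 in Atp6ap2iECKO iLECs) overlapped, with adjusted P values of 0.22 and 0.534. Of the exon bases of *Gins2*, 67.3% also lie in exons of *Gse1* on the opposite strand, and the library kit (TruSeq RNA v2) does not keep strand, so reads from the shared bases could not be told apart by strand.

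All 4 genes of polymerase α-primase were higher in every Atp6ap2iECKO library than in any control library, and *Pola1*, *Pola2* and *Prim2* passed. *Pola1*, the catalytic subunit of the polymerase, on chromosome X (chrX:93304767-93632155), had 636, 1174 and 619 in control replicates 1 to 3 and 1331, 1643 and 1553 in Atp6ap2iECKO replicates 1 to 3 (log2 fold change 0.96, SE 0.24, adjusted P = 0.0469). It was the gene nearest the threshold on its inner side. *Pola2*, the accessory subunit, had 616, 546 and 498 in control and 842, 788 and 795 in Atp6ap2iECKO iLECs, the smallest rise of the group (log2 fold change 0.55, SE 0.11, adjusted P = 0.0271). *Prim2*, the regulatory primase subunit, had 245, 401 and 315 in control and 514, 557 and 595 in Atp6ap2iECKO iLECs (log2 fold change 0.82, SE 0.19, adjusted P = 0.0373). *Prim1*, the catalytic primase subunit, had 172, 467 and 236 in control and 534, 609.8 and 562 in Atp6ap2iECKO iLECs, where control replicate 2 was 2.71 times control replicate 1, and it did not pass (adjusted P = 0.0813).

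Of the polymerase δ and ε genes, *Pold1*, *Pold2* and *Pole* rose, and *Pold3* and *Pole2* were separated between genotypes without passing. *Pold1*, the catalytic subunit of the lagging strand polymerase (chr7:44532746-44548849), had 474, 608 and 461 in control replicates 1 to 3 and 837, 976 and 1057 in Atp6ap2iECKO replicates 1 to 3 (log2 fold change 0.90, SE 0.14, adjusted P = 0.0139). *Pold2*, its accessory subunit, had 246, 381 and 326 in control and 510, 654 and 605 in Atp6ap2iECKO iLECs (log2 fold change 0.91, SE 0.18, adjusted P = 0.0271). *Pole*, the catalytic subunit of the leading strand polymerase (chr5:110286306-110337474), had 309, 880.3 and 425 in control replicates 1 to 3 and 1082, 1458 and 1382 in Atp6ap2iECKO replicates 1 to 3. Its 2.66-fold rise was the largest of the 44 genes, yet control replicate 2 was 2.85 times control replicate 1 (log2 fold change 1.41, SE 0.34, adjusted P = 0.0445). *Pold3* had 682, 712 and 592 in control and 756, 939.9 and 926 in Atp6ap2iECKO iLECs (adjusted P = 0.0978) and *Pole2* had 111, 164 and 163 in control and 203, 236 and 212 in Atp6ap2iECKO iLECs (adjusted P = 0.126).

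*Pcna*, the clamp that tethers polymerases to DNA (chr2:132249162-132253314), rose, whereas none of the 5 genes of its loader, replication factor C, passed. *Pcna* had 4264, 6008 and 4797 in control replicates 1 to 3 and 7417, 7821 and 7409 in Atp6ap2iECKO replicates 1 to 3 (log2 fold change 0.60, SE 0.12, adjusted P = 0.0283), and the 3 Atp6ap2iECKO libraries were within 1.06-fold of each other. The mouse genome holds processed copies of *Pcna*, and how reads shared with them were counted is not given in the sources used here. The loader genes were nonetheless separated between genotypes in all 5 cases and had unadjusted P values below 0.05. *Rfc4* (97.3, 186 and 127 in control and 233, 254 and 261 in Atp6ap2iECKO iLECs) and *Rfc5* (201, 373 and 218 in control and 476, 454 and 403 in Atp6ap2iECKO iLECs) differed by 1.89-fold and 1.74-fold (adjusted P = 0.0598 and 0.0781). *Rfc1*, the large subunit, *Rfc2* and *Rfc3* differed by 1.25-fold, 1.32-fold and 1.31-fold (adjusted P = 0.086, 0.0863 and 0.133). The difference between *Pcna* and its loader genes was not tested.

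The 2 genes that join lagging strand (Okazaki) fragments rose. *Fen1*, the flap endonuclease, had 628, 924 and 655 in control and 1257, 1453 and 1355 in Atp6ap2iECKO iLECs (log2 fold change 0.90, SE 0.15, adjusted P = 0.0167), and an antisense gene covers 78.8% of its exon bases, with the same limit. *Lig1*, the ligase that seals the remaining nicks (chr7:13277283-13311433), had 731, 1329 and 916 in control replicates 1 to 3 and 1905, 2015 and 1959.8 in Atp6ap2iECKO replicates 1 to 3 (log2 fold change 1.03, SE 0.19, adjusted P = 0.022). *Lig1* was 1.82 times as high in control replicate 2 as in control replicate 1, while its Atp6ap2iECKO libraries agreed within 1.06-fold.

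Replication protein A coats single-stranded DNA, and of its 3 genes 1 rose. *Rpa1*, the large DNA-binding subunit, had 1381, 1780.1 and 1482 in control and 2219.6, 2169.8 and 2075 in Atp6ap2iECKO iLECs and rose (log2 fold change 0.49, SE 0.11, adjusted P = 0.0335). *Rpa2* had 318, 532 and 453 in control and 625, 757 and 815 in Atp6ap2iECKO iLECs, separated between genotypes and just outside the threshold (log2 fold change 0.78, SE 0.20, adjusted P = 0.0533). *Rpa3*, the smallest subunit, had 219, 259 and 247 in control and 261, 262 and 233 in Atp6ap2iECKO iLECs, which overlapped, and the interval of its log2 fold change ran from -0.28 to 0.40.

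Among the 4 genes that stabilize forks, *Clspn* rose, *Tipin* and *Wdhd1* were higher without passing and *Timeless* was lower without passing. *Clspn*, the claspin gene, which links the fork to the checkpoint kinase, had 396, 836 and 410.1 in control replicates 1 to 3 and 1162, 1248 and 1175 in Atp6ap2iECKO replicates 1 to 3 (log2 fold change 1.22, SE 0.26, adjusted P = 0.0326). *Tipin* had 415, 764 and 549 in control and 892, 1003 and 1055 in Atp6ap2iECKO iLECs and was the nearest gene outside the threshold (log2 fold change 0.81, SE 0.21, adjusted P = 0.051). *Wdhd1*, which joins the helicase to polymerase α, had 208, 551 and 365 in control and 523, 851 and 1001 in Atp6ap2iECKO iLECs, where control replicate 2 exceeded Atp6ap2iECKO replicate 1 (adjusted P = 0.102). *Timeless*, singled out after its values were seen (chr10:128232065-128252941), had 3421, 4521 and 3854 in control replicates 1 to 3 and 3059, 3062 and 2828 in Atp6ap2iECKO replicates 1 to 3. Every Atp6ap2iECKO library lay below every control library (log2 fold change -0.39, SE 0.11, adjusted P = 0.0688), which no other replication gene showed. Its fold change stayed negative under all 19 alternatives, and it passed in 2 of them. In the fit without control replicate 1 it passed (limma, adjusted P = 0.0362). The other, an adjusted P below 0.1, is the main fit with a looser threshold, which 0.0688 meets by itself.

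All 4 genes that rebuild chromatin and DNA methylation behind the fork rose. *Uhrf1*, which recognizes DNA methylated on 1 strand and recruits the methyltransferase (chr17:56303321-56323486), had 629, 1315 and 771 in control replicates 1 to 3 and 1809, 2339.8 and 2259 in Atp6ap2iECKO replicates 1 to 3, a 2.46-fold rise (log2 fold change 1.30, SE 0.25, adjusted P = 0.0234). *Dnmt1*, the maintenance methyltransferase (chr9:20907209-20959888), had 2657, 4065 and 2998 in control replicates 1 to 3 and 5717, 6201 and 5701 in Atp6ap2iECKO replicates 1 to 3 (log2 fold change 0.88, SE 0.15, adjusted P = 0.0156). *Chaf1a* and *Chaf1b*, the large and middle subunits of chromatin assembly factor 1, had 457, 884 and 626 in control and 1098, 1285 and 1186 in Atp6ap2iECKO iLECs and 273, 462 and 348 in control and 566, 741 and 747 in Atp6ap2iECKO iLECs, respectively. They rose by similar amounts, 1.88-fold and 1.92-fold (adjusted P = 0.0428 and 0.0335). In the exons of *Chaf1a*, 52.5% of the bases are shared with *Ubxn6* on the opposite strand, and strand could not separate these reads either. In all, 18 of the 44 genes share exon bases with another gene and 8 of them at least 10% of their own.

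**Figure D2:**
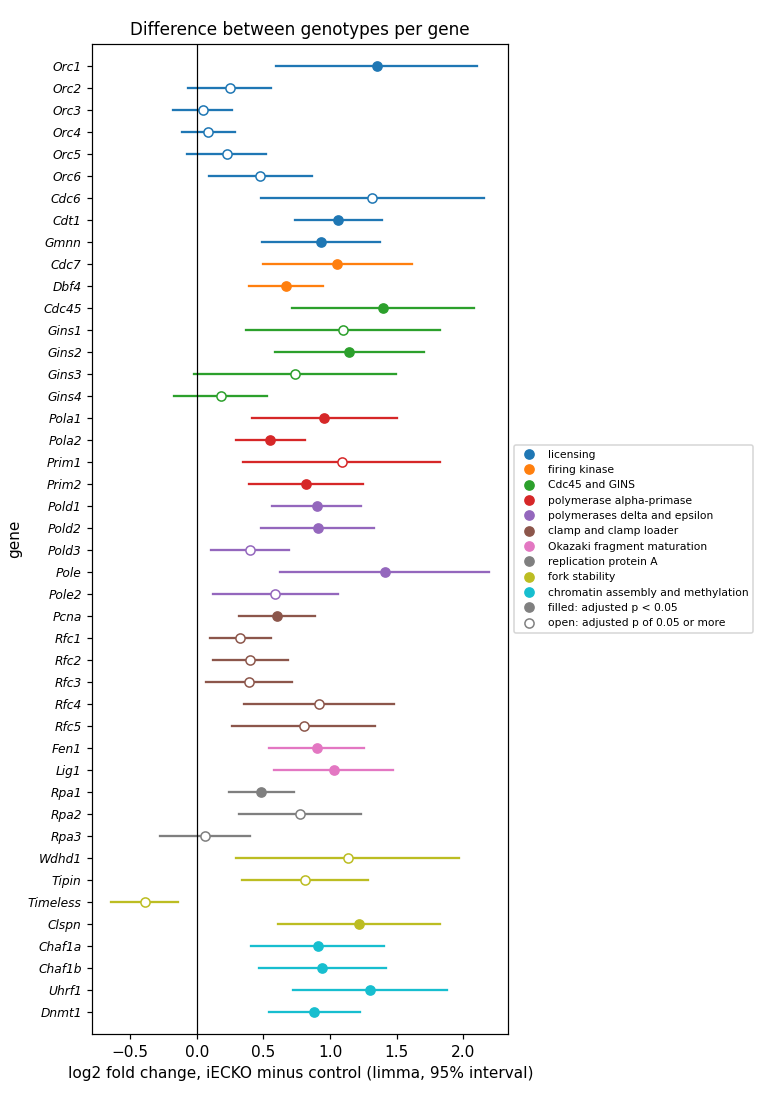
Points give the log2 fold change (Atp6ap2iECKO minus control) of each gene with its 95% interval from limma, in color by role. Filled points are the 22 genes with an adjusted P value below 0.05, and *Timeless* is the only point left of 0.

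Levels of different genes were compared as normalized counts per kilobase of merged exon (GENCODE M21). *Pcna* was by far the most abundant transcript, at 2093 ± 372 per kilobase in control and 3145 ± 98.3 in Atp6ap2iECKO iLECs (SD, n = 3 each). *Timeless* was second in control iLECs (643 ± 90.7 per kilobase) and ranked 6 in Atp6ap2iECKO iLECs (488 ± 21.9), where *Dnmt1*, *Fen1*, *Tipin* and *Uhrf1* stood above it. *Gins3* was the lowest in both genotypes, at 34.95 ± 11.1 and 58.6 ± 17.7 per kilobase. In control iLECs *Gins1* (40.2 ± 16.05 per kilobase) and *Gins2* (39.2 ± 14.00) did not differ from *Gins3* beyond their spread. For *Gins2* this depends on the exon length used, 4097 bases against 2709 for *Gins3*. The normalized counts of *Gins2* and *Gins3* averaged 161 and 94.7 in control iLECs.

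The balance of subunit transcripts within a complex was described by shares of the summed level per kilobase. *Orc1* made up 2.92% to 6.46% of ORC transcript in control libraries and 8.99% to 10.7% in Atp6ap2iECKO libraries. *Gins4* had the highest level per kilobase of the GINS subunits and went from 55.9% to 70.3% in control to 48% to 55.6% in Atp6ap2iECKO libraries. That ranking depends on the exon length used, 1349 bases for *Gins4* and 4097 for *Gins2*. By normalized count *Gins2* was above *Gins4* in every Atp6ap2iECKO library. *Rpa3* went from 31.4% to 35.3% to 24.1% to 27.5% of RPA transcript, *Pold3* from 32.2% to 39.5% to 27.1% to 27.3% of the 3 polymerase δ transcripts, and *Rfc4* from 12% to 16.8% to 18.6% to 19.5% of the clamp loader transcripts. The widest shift was that of *Timeless* against its partner *Tipin*, with which it forms a fork protection complex. *Timeless* was 64.4% to 71.6% of their summed level in control and 45% to 51.2% in Atp6ap2iECKO libraries. By contrast the shares of *Chaf1a* and *Chaf1b* overlapped between genotypes, as did those of all 4 polymerase α-primase subunits. These shares restate the fold changes of the single genes on a common scale and were not tested.

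**Figure D3:**
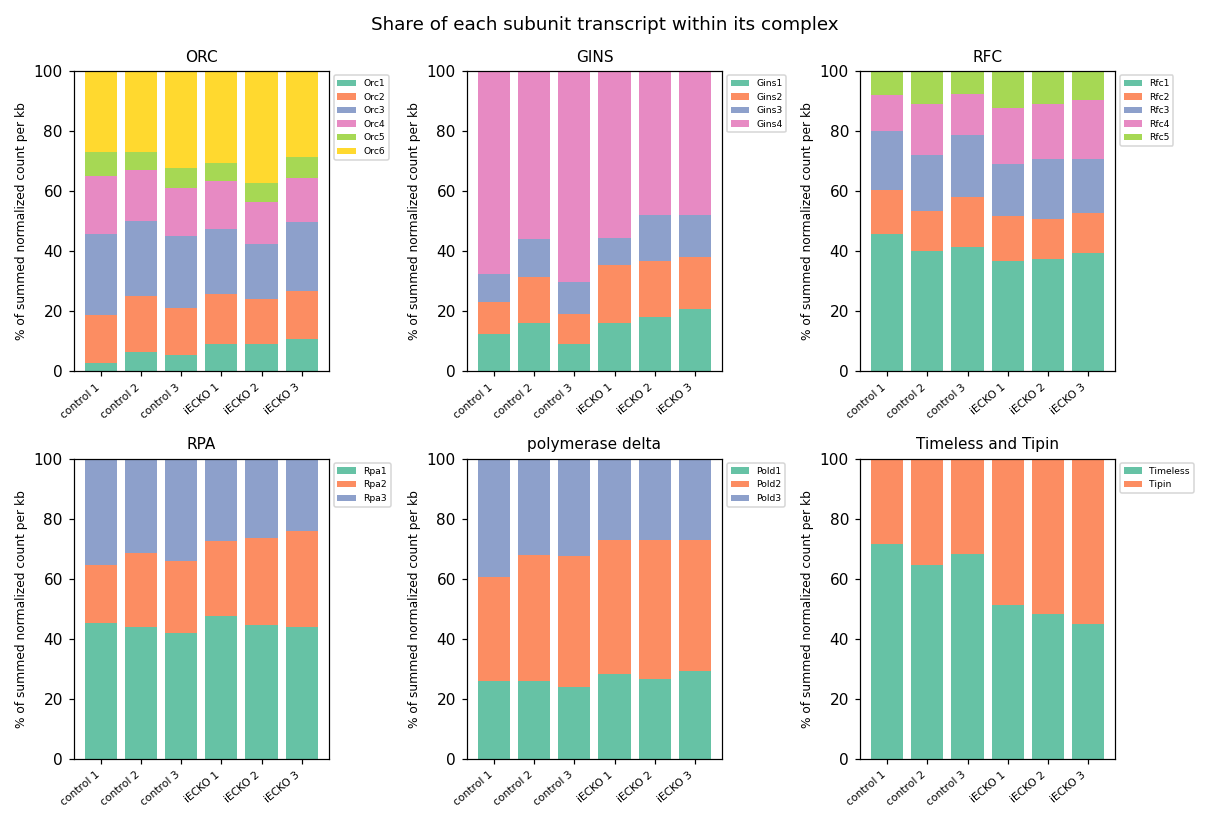
Each bar is 1 library and is divided into the percentage of the summed normalized count per kilobase that each subunit transcript of a complex holds. *Orc1* takes a larger part of ORC, and *Gins4*, *Rpa3*, *Pold3* and *Timeless* a smaller part of their complexes, in the 3 Atp6ap2iECKO libraries than in the 3 control libraries.

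The control libraries varied more in these genes than the Atp6ap2iECKO libraries did. They were also shallower, at 1 to 1.04 times the depth of the shallowest library by the step between low values. The Atp6ap2iECKO libraries stood at 1.26 to 1.56 times, and the part of depth in this spread was not tested. The SD of the log2 value was larger in control than in Atp6ap2iECKO libraries for 39 of the 44 genes (88.6%), against 60.2% of all genes tested. Its median was 0.33 in control and 0.11 in Atp6ap2iECKO libraries, against 0.19 and 0.15 over all genes tested. For 16 of the genes the highest control library exceeded the lowest by more than the fold change between genotypes, among them *Cdc6*, *Prim1*, *Wdhd1*, *Pole* and *Orc1*. Control replicate 1 was the lowest library for 34 genes and control replicate 3 for 8. The shares over all genes tested were not taken for these counts of ranges and lowest libraries, which describe the 44 genes alone. The median log2 ratio of the 44 genes to the control mean was -0.31, 0.34 and -0.056 in control replicates 1 to 3, so control replicate 2 stood nearest to the Atp6ap2iECKO libraries without reaching them.

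Other genes of the replication program were counted in the same fit, in which 3.28% of all genes tested rose and 4.97% fell. At unadjusted P below 0.05 (limma) 11.6% of all genes tested were higher and 12.3% lower. Of 10 MCM family genes 7 rose and 0 fell (limma, with 8 higher and 0 lower at unadjusted P below 0.05), with a median log2 fold change of 1.00. The lowest adjusted P values were those of the helicase subunits *Mcm7* (log2 fold change 1.04, adjusted P = 0.0182) and *Mcm2* (1.12, 0.0239). Of 30 further origin and fork genes 16 rose and 0 fell (23 and 0 at unadjusted P below 0.05), with a median of 0.56. *Dna2*, a nuclease that trims long flaps, rose from 196 ± 38.7 in control and 484 ± 49.6 in Atp6ap2iECKO iLECs (SD, n = 3 each) (log2 fold change 1.31, adjusted P = 0.0104). *Asf1b*, a histone chaperone, had a log2 fold change of 1.14 (adjusted P = 0.0146). *Topbp1*, which helps to load *Cdc45*, had 0.64 (adjusted P = 0.0212). *Slbp*, which binds histone mRNA, had 0.47 (adjusted P = 0.0215).

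Of 14 genes for deoxynucleotide synthesis 10 rose and 0 fell (11 and 0 at unadjusted P below 0.05), with a median log2 fold change of 0.92. *Nme1* (0.95, adjusted P = 0.0104), *Dctd* (2.01, 0.0152) and *Shmt1* (1.47, 0.0192) had the lowest adjusted P values. Of 39 mitotic genes 19 rose and 0 fell (38 and 0 at unadjusted P below 0.05), with a median of 0.87, next to 0.85 for the 44 replication genes. *Cdk1*, the mitotic kinase, had a log2 fold change of 0.96 (adjusted P = 0.0162) and *Ccna2*, a cyclin A, 1.06 (0.0192). In both lists control replicate 2 was the highest control library, at 0.51 above the control mean for the mitotic genes.

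Of 31 tested regulators of the G1 to S step 10 rose and 1 fell (limma, 17 and 2 at unadjusted P below 0.05), with a median log2 fold change of 0.34. *Ccne1*, a cyclin E, had a log2 fold change of 1.06 (adjusted P = 0.0108), *Ccnd1*, a cyclin D, had 0.85 (adjusted P = 0.017), and *Cdk4*, its kinase partner, had 0.52 (adjusted P = 0.0212). The gene that fell was *Cdkn1c*, an inhibitor of cyclin-dependent kinases, with 1431, 1319.9 and 1835 in control and 757, 639 and 518 in Atp6ap2iECKO iLECs (log2 fold change -1.26, SE 0.17, adjusted P = 0.0103).

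Marker genes of other cell types moved in the same libraries. In bulk RNA, fewer cells of a type and less RNA per cell cannot be told apart. Of 20 endothelial markers 0 rose and 1 (*Tek*) fell, with a summed normalized count between 396007 and 496413 in control and between 402165 and 461770 in Atp6ap2iECKO libraries, and *Pecam1*, which encodes CD31, had a log2 fold change of 0.12 (adjusted P = 0.599). Of 16 tested fibroblast markers 11 fell and 0 rose, against 4.97% and 3.28% of all genes tested. A positive log2 fold change was seen in 2 of the 16, *Pi16* (1.12) and *Mfap5* (0.55), neither of which passed. The fibroblast markers summed to 114539 to 171193 in control and 43331 to 61180 in Atp6ap2iECKO libraries. Of 16 mural and smooth muscle markers 10 fell, and their sum was 26593 to 38584 in control and 10466 to 13702 in Atp6ap2iECKO libraries. The fibroblast markers *Lum* and *Scara5* were listed at 0 in some libraries, and no endothelial or mural marker was. Relative to the control average (log2, middle gene of each list), control replicates 1 to 3 stood at -0.31, 0.34 and -0.056 for the 44 replication genes. They stood at -0.34, 0.23 and 0.086 for the fibroblast markers and at -0.42, 0.24 and 0.22 for the mural markers. The part of these cell types in the replication gene levels was not tested.

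**Figure D4:**
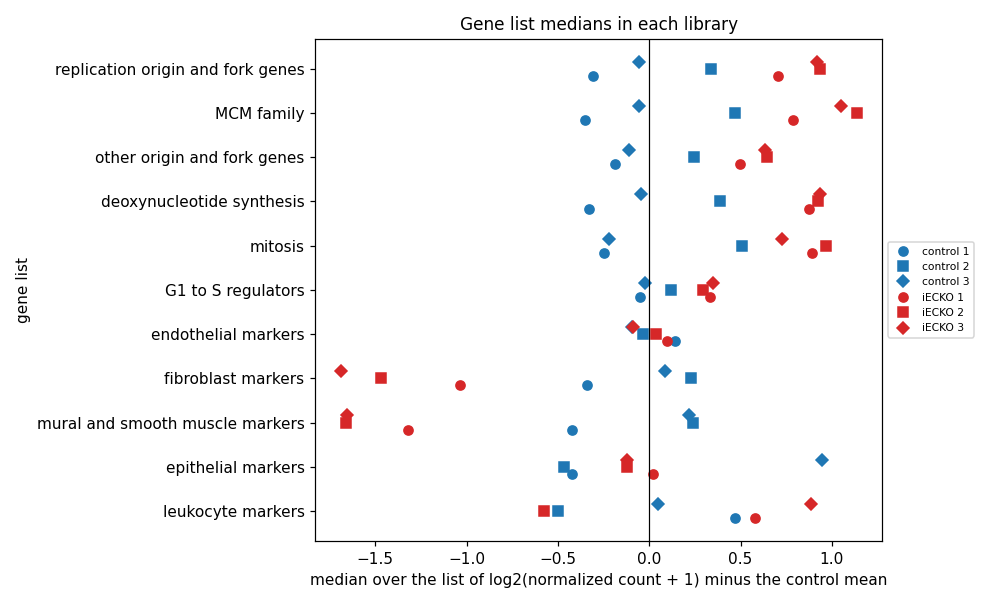
Each point is the median, over 1 gene list, of the log2 of the normalized count plus 1 minus the control mean in 1 library (blue, control, and red, Atp6ap2iECKO). For the replication genes the 3 Atp6ap2iECKO libraries lie at 0.71 to 0.94 and the control libraries at -0.31 to 0.34, the fibroblast and mural lists lie far to the left in Atp6ap2iECKO libraries, and the endothelial markers stay near 0.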

How the data were processed

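RNA-Seq of CD31-selected lung ECs gave 1 library from each of 3 control and 3 Atp6ap2iECKO samples. Per the methods and the labels, the authors aligned reads to mm10 with the BaseSpace RNA-Seq alignment tool (2.0.1) and quantified genes with the BaseSpace differential expression tool (1.0.1). The annotation is not given in the sources used here. The deposited values are gene counts as a normalized signal: the labels call them raw counts, but they are not whole, and 71.5% to 84.9% of low values were whole multiples of 1 step (tolerance 0.1 of a step), so reads could not be recovered and no count model was used. Scaling to a common depth leaves low genes less precise in shallower libraries.

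Genes with a value of at least 10 in at least 3 libraries (14456 of 24972) were tested on log2(value + 1) with limma 3.58.1 (mean-variance trend, two-sided, R 4.3.3), without a replicate block, with Benjamini-Hochberg adjustment over all genes tested and a threshold of 0.05. Fold changes are on the log2(value + 1) scale and understate those of low genes. The fit was tested first on simulated data, with seeded changes larger than those of the replication genes and noise independent between genes. That test does not cover the smaller changes reported here. The members and gene lists were chosen with earlier results of these data known. Library values were to be given for genes that passed, with up to 4 genes by lowest P value from each other list, and those of further genes that did not pass were added after their values were seen. Alternatives were other scalings, filters, pseudocounts, thresholds and variance models, *Xist* as a covariate or stratum, and each library left out. The comparison of the libraries without *Xist* was chosen after seeing the data. Exon lengths and gene coordinates came from GENCODE M21 (GRCm38) and promoters from RefSeq (GRCm38.p6).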

Additional observations from a re-analysis of the deposited data

How the results depend on the processing

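The median log2 fold change of the 44 replication genes was between 0.67 and 1.04 under every alternative run. The count of these genes that rose was 22, and leaving out single libraries gave 1 to 28. It was 1 with no mean-variance trend, 0 at an adjusted P below 0.01 (36 at unadjusted P below 0.05), 14 with *Xist* presence as a covariate and 0 in the libraries with *Xist* only. The count that fell was 0, with 0 to 1 over the left-out libraries and 1 at an adjusted P below 0.1. Of all genes, 28 to 461 were higher and 176 to 659 lower over the left-out libraries. With no trend 69 were higher and 235 lower, at an adjusted P below 0.01 8 and 82, at 0.1 908 and 1079, with the *Xist* covariate 248 higher, and in the libraries with *Xist* only 1 and 0. The cause of these changes was not tested, beyond fewer samples in the fits without a library. The Atp6ap2 log2 fold change was -1.54 to -0.999 over the left-out libraries, -1.22 (not past the threshold) with no trend and at an adjusted P below 0.01, and -1.19 in the libraries with *Xist* only. Direction reversed for *Orc3* (-0.027 without Atp6ap2iECKO replicate 3, range to 0.088 over the left-out libraries) and *Rpa3* (-0.0062 without control replicate 1, range to 0.12), neither of which passed in any setting.

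With the replicate number as a block, 28 of the 44 genes rose, 670 genes were higher and 838 lower, and the log2 fold change of *Atp6ap2* was -1.22 (limma, adjusted P = 0.0106). Deviations of same-numbered libraries correlated at 0.252, 0.114 and 0.0782 for replicates 1 to 3, and 5 of the 6 other pairs were negative, the exception being control replicate 3 with Atp6ap2iECKO replicate 2 (0.1). Deviations were taken from the genotype mean of each gene, so positive same-numbered pairs force negative values among the other pairs. The negative values are therefore no further sign of pairing. Not every same-numbered pair was over 0.1, and whether the numbers mark shared litters or preparation days is not given in the sources used here and was not settled. The unknown read depth limits what can be said of low genes such as *Gins3*.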

Other observations

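Markers of other cells that a CD31 selection can carry along varied between libraries, and their summed counts overlapped between genotypes. Of 20 epithelial markers 1 rose (*Scgb1a1*, a club cell gene) and 0 fell, and their summed normalized count was 34233 to 87586 in control and 41984 to 49444 in Atp6ap2iECKO libraries, with control replicate 3 the highest. Of 21 tested leukocyte markers 0 passed in either direction (limma, and 0 at unadjusted P below 0.05), with sums of 9363 to 17085 in control and 7498 to 21509 in Atp6ap2iECKO libraries. Of 7 tested erythroid and 9 tested platelet markers 0 passed (limma, and 0 at unadjusted P below 0.05), and the erythroid gene *Hbb-bs* was listed at 0 in all libraries. The platelet markers had a median log2 ratio to the control mean of 1.60 in control replicate 1 and 1.37 in Atp6ap2iECKO replicate 1. It was -0.84 to 0.35 in the other libraries. Erythroid sums were lowest in the same replicate 1 libraries, at 11314 and 10664, against 18431 to 47969 in the others. Whether replicates of the same number shared a preparation was not tested.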
